A study of Homo sapiens with 8 samples.

Results

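The shared effect of KLHL23 knockdown was taken as the difference between 4 knockdown arrays and 4 control arrays of 2 human hepatoma lines, fitted with the line as a covariate. A gene was called at a Benjamini-Hochberg adjusted limma p under 0.05, and it was said to move the same way when every knockdown array lay beyond both control arrays of its own line, on the same side in Hep-3B and Huh7. Of 19775 genes, 4761 moved the same way (24.1%), 2444 of them higher and 2317 lower with knockdown. A further requirement that the gene be called left 2006 (10.1%), of which 995 were higher (5.03%) and 1011 lower (5.11%). The requirement of moving the same way uses the tested values themselves, so it describes the calls and is no second test of them. For genes named below because they met it, the absence of overlap within a line follows from that choice.

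Hep-3B and Huh7 are established lines grown from liver cancers. Each line was transduced, at a multiplicity of infection of 2, with lentivirus carrying a short hairpin RNA against KLHL23 (shKLHL23) or against luciferase (shLuc), a gene that human cells lack. Puromycin was added 48 hours later, and the medium of all 4 groups held 10% fetal bovine serum. Each group of line and hairpin had 2 Affymetrix arrays, numbered 1 and 3 in the labels, which name no separate cultures; the p-values therefore reflect the spread among these arrays alone, and that spread may be technical. The knockdown hairpin has 1 name in both lines, so loss of KLHL23 and any effect of that hairpin on other transcripts cannot be told apart. The values are log2 levels from robust multi-array averaging (RMA), in which a difference of 1 is a 2-fold change.

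KLHL23 belongs to the Kelch-like proteins, many of which hand substrates to the ubiquitin ligase built on cullin 3. The series title places it in the epithelial-mesenchymal transition, in which epithelial cells take on a motile state. Several of the gene groups below answer to nutrient and stress signals. The integrated stress response begins with kinases that phosphorylate a translation factor, which favours synthesis of the transcription factor ATF4, and ATF4 then raises genes that supply amino acids. Metallothioneins are small proteins that bind zinc and copper, and their genes are raised by the metal-sensing factor MTF1.

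KLHL23 itself had log2 levels of 7.81 and 7.84 with shLuc and of 7.21 and 6.15 with shKLHL23 in Hep-3B. In Huh7 it stood at 7.89 and 7.87 with shLuc and at 5.78 and 5.88 with shKLHL23. All 4 knockdown arrays lay below every control array, and Hep-3B knockdown replicate 1 kept 65.5% of its line's control level where the other 3 knockdown arrays kept 23.4% to 31.4%. The shared difference was -1.59 (SE 0.23, n = 4 arrays per hairpin, limma adjusted p = 0.00838), and it ranged from -1.90 to -1.47 when each array was left out in turn. In these bulk samples a fall in RNA per cell and a smaller share of cells with the transcript cannot be told apart.

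The array with the weakest knockdown also departed least from its controls. Over all genes the SD of the departure from the line's control mean was 0.204 in Hep-3B knockdown replicate 1 and 0.325 in replicate 3, against 0.366 and 0.316 in Huh7 replicates 1 and 3. Among the 2006 called genes the median size of the departure was 0.26 and 0.46 in the Hep-3B arrays and 0.55 and 0.48 in the Huh7 arrays, in the same order of replicates. In Hep-3B, 1883 of the 2006 (93.9%) departed further in replicate 3, and in Huh7, 681 (33.9%) did. Hepatocyte markers were all above the lower quartile of the arrays in every group, and 1 of 8, TTR, was called higher. Of the markers of other liver cells, 1 of 8 for stellate cells (LUM), 2 of 8 for endothelium (CDH5 and KDR) and 1 of 7 for blood cells (PTPRC) lay below the lower quartile in all groups, and the other members did not. LYZ, of macrophages, was at 11.06 to 12.38 over the 8 arrays, and ACTA2, of stellate cells, at 9.06 to 9.36 in Hep-3B. LYVE1, of endothelium, stood at 5.77 and 5.72 (shLuc) against 6.78 and 7.32 (shKLHL23) in Hep-3B, a rise of 1.30 in the fit with a mean for each group (limma adjusted p = 0.029), and was not called in the shared fit (limma adjusted p = 0.0916). The shared limma fit called 0 of the 8 stellate, 8 endothelial and 7 blood markers (1 in each list at an unadjusted p under 0.05). Their summed log2 levels were 39.4 to 39.8 with shLuc and 39.2 to 40.8 with shKLHL23 for stellate cells in Hep-3B, and 36.9 to 37.6 and 37.0 to 37.7 in Huh7. For endothelium they were 33.2 to 33.6 and 34.2 to 34.4 in Hep-3B, and 28.9 to 29.9 and 30.3 in Huh7. For blood cells they were 36.0 to 36.8 and 37.0 to 37.8 in Hep-3B, and 39.4 to 39.6 and 39.1 to 39.6 in Huh7. Of 8 cholangiocyte markers none lay below the lower quartile and 2 were called, EPCAM higher and SOX9 lower; their sum was 65.4 to 65.8 with shLuc and 64.7 to 65.3 with shKLHL23 in Hep-3B, and 59.6 to 59.7 and 63.3 to 63.7 in Huh7. The part of these cell types in the results was not tested. The 3′ minus 5′ probe set difference of ACTB, which rises as RNA degrades, was higher with knockdown in Hep-3B (0.737 and 0.753, against 0.442 and 0.537) and lower in Huh7 (0.525 and 0.546, against 0.873 and 0.833). That of GAPDH was higher in Hep-3B too (0.223 and 0.236, against 0.117 and 0.12), and in Huh7 it overlapped (0.148 and 0.112, against 0.132 and 0.089). Their part in the results was not tested.

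Called changes were mostly small. The median size was 0.43 for the 995 higher genes and 0.46 for the 1011 lower genes, and 51 genes changed at least 2-fold in each line, 22 higher and 29 lower (0.258% of all genes). The size was larger in Huh7 for 1485 of the 2006 (74%), with a median of 0.51 against 0.36 in Hep-3B. At the threshold, C6orf62 lay just inside at an adjusted p of 0.0499 (0.24, SE 0.07), and DHCR7, the last enzyme of cholesterol synthesis, lay just outside (0.55, SE 0.15, limma adjusted p = 0.05). Another probe set of C6orf62 was called in the opposite direction. The median level over the 8 arrays was 7.90 for the higher and 7.93 for the lower genes, against 5.69 for all genes.

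**Figure D1:**
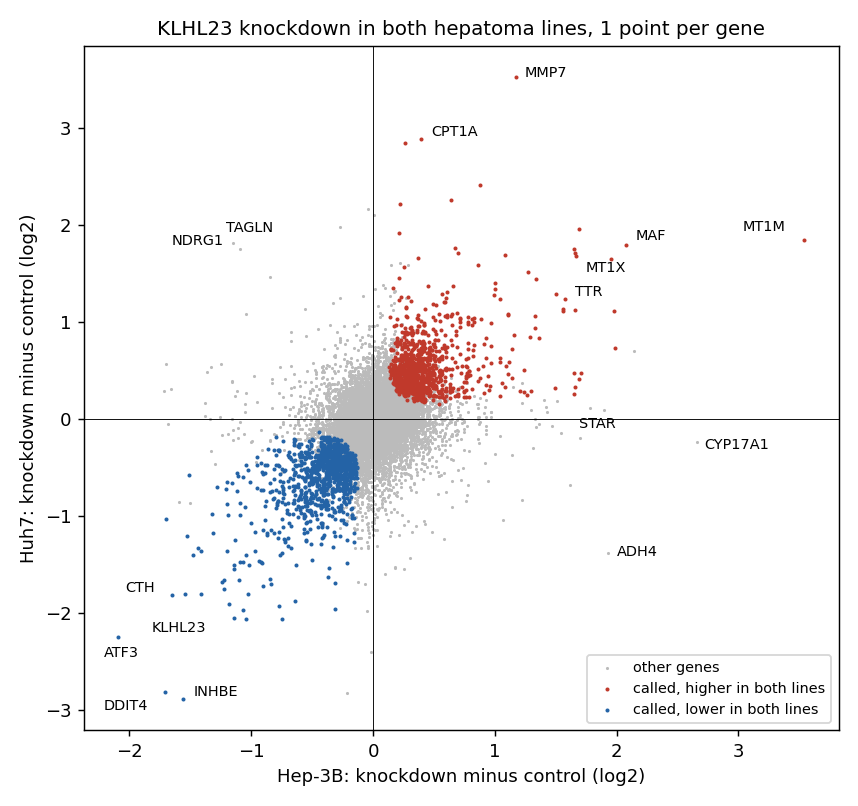
Knockdown minus control in Hep-3B (horizontal, log2) against Huh7 (vertical, log2), 1 point per gene. Red points are the 995 genes called higher and blue points the 1011 called lower in both lines, and grey points are the other genes. MT1M (3.54 in Hep-3B, 1.84 in Huh7) and ATF3 (-2.09 and -2.25) lie far out in the quadrants where the lines move together, and TAGLN (-1.15 and 1.81) and ADH4 (1.93 and -1.38) in those where they move apart.

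Across all genes the Hep-3B difference correlated with the Huh7 difference at a Pearson r of 0.429 and a Spearman rho of 0.357 (n = 19775 genes, which are not independent replicates), a description with no test. The lines share no array, and the points share the hairpin and the processing. Over the 12049 genes above log2 5 in at least 2 arrays r was 0.489. In the fit with a mean for each group, 137 genes were called in Hep-3B (0.693%) and 2666 in Huh7 (13.5%), and 56 were called in both, which is 40.9% of the Hep-3B calls and 2.1% of the Huh7 calls. Of those 56, 48 had the same sign (0.243% of all genes) and 8 opposite signs (0.0405%). Knockdown arrays lay beyond both controls, on either side, for 53% of all genes in Hep-3B and 53.7% in Huh7. Both Hep-3B knockdown arrays lay so in the Huh7 direction for 1750 of the 2666 Huh7 calls (65.6%) and in the opposite direction for 310 (11.6%), where all genes gave 35.4% and 17.6%. For the 137 Hep-3B calls the Huh7 arrays did so for 88 (64.2%) and 23 (16.8%), where all genes gave 36.3% and 17.5%.

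Metallothioneins led the rises. Of the 10 genes with the largest smaller-of-the-lines rise, 8 were metallothioneins, and the other 2 were MAF, a transcription factor of the bZIP class, and GOLM1, a Golgi membrane protein raised in liver disease. MT1X stood at 10.19 and 10.09 (shLuc) against 11.57 and 12.05 (shKLHL23) in Hep-3B, and at 9.25 and 9.42 against 11.02 and 11.01 in Huh7. Knockdown and control arrays did not overlap within either line, and the distances were alike: 1.67 in Hep-3B and 1.68 in Huh7. The shared difference of MT1X was 1.68 (SE 0.10, n = 4 per hairpin, limma adjusted p = 0.000228), a 3.2-fold rise. MT2A, the metallothionein found in most tissues, lay at 10.98 and 10.90 (shLuc) against 11.98 and 12.43 (shKLHL23) in Hep-3B, and at 10.02 and 9.93 against 11.52 and 11.47 in Huh7. Its groups were likewise apart in both lines (shared difference 1.39, SE 0.10, limma adjusted p = 0.000442). MT1E (1.70), MT1F (1.80), MT1G (1.82), MT1H (1.69) and MT1HL1 (1.39) rose with limma adjusted p-values of 0.000228 to 0.000387.

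MT1M was measured at 2.66 and 2.58 with shLuc in Hep-3B, under those arrays' lower quartile, and at 5.57 and 6.75 with shKLHL23. In Huh7 it was at 4.13 and 4.60 with shLuc and 6.28 and 6.14 with shKLHL23. All 4 knockdown arrays were above all 4 controls, with a shared difference of 2.69 (SE 0.35, limma adjusted p = 0.00786), but the size in Hep-3B starts from a level that is not separated from background by these values. The metallothioneins are near-identical copies: 10 of their 14 probe sets end in _x_at or _s_at, which marks probes that can bind several transcripts, and all 10 were called higher. Among the other 4 only that of MT1M was called, and a dim second probe set of MT1G (mean level 3.09) gave 0.20 (limma adjusted p = 0.157). How the rise is shared out among the members is therefore uncertain.

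The 250 bases upstream of the start are shown for the 3 metallothionein genes with an entry in the RefSeq promoter table (GRCh38.p14), because the metal response element that MTF1 binds is short and can be found by its letters. Capitals mark TGCGCNC or TGCACNC on either strand, and sequences run 5′ to 3′ on the strand of the gene.
MT1X (chr16:56682220-56682469, + strand): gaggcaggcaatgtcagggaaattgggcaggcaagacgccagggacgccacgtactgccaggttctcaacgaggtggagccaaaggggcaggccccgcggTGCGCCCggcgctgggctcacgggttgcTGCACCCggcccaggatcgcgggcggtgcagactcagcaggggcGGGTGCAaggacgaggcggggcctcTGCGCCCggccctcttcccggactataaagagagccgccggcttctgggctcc
MT1H (chr16:56669564-56669813, + strand): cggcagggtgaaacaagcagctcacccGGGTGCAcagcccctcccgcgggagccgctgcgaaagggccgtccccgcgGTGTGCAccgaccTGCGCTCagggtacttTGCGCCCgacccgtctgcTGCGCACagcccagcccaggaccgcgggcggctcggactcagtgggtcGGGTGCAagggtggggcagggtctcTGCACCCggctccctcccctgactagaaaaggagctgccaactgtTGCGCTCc
MT2A (chr16:56608334-56608583, + strand): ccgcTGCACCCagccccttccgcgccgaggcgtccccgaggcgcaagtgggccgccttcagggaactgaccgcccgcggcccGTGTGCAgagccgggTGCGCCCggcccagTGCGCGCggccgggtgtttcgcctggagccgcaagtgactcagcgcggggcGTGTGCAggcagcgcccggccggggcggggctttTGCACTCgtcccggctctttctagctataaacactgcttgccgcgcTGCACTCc
MT1X held 4 matches, MT1H 8 and MT2A 7. Of the 15382 measured genes with an entry, 29.7% held at least 1 match, with a mean of 0.407 and at most 12, as did 24.7% of all 27305 entries. The share was 34.4% among the genes called higher in both lines and 31.6% among those called lower. A match is a description of the letters and not evidence of binding.

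The metallothionein and zinc list had 22 measured genes, of which 9 were called higher and 2 lower (median 0.28), against 5.1% higher and 5.16% lower of all genes (median 0.01). These shares over all genes are the comparison for every list count below. Besides the 7 metallothioneins on it that were called, the zinc importer SLC39A5 (0.44, SE 0.08, limma adjusted p = 0.0154) and the zinc transporter of the secretory pathway SLC30A5 (0.38, SE 0.10, limma adjusted p = 0.0399) rose. SLC30A10, which exports manganese from the cell, fell by 1.2 on the log2 scale (SE 0.24, limma adjusted p = 0.0185) and the importer SLC39A10 by 0.62 (SE 0.13, limma adjusted p = 0.0204). The metallothionein calls all held with each array left out in turn, while the 4 transporters each lost theirs without Huh7 control replicate 1 (limma adjusted p up to 0.127 for SLC30A5).

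**Figure D2:**
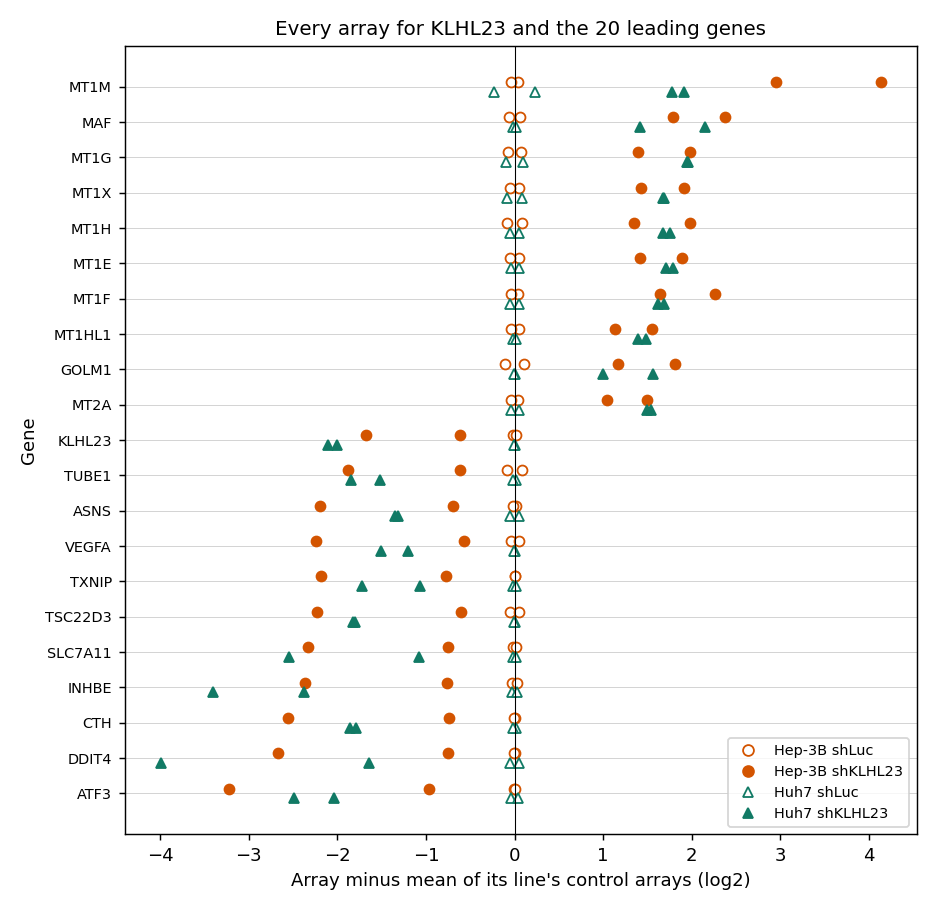
Departure of each array from the mean of its line's 2 control arrays (horizontal, log2) for KLHL23 and the 10 higher and 10 lower genes with the largest smaller-of-the-lines difference (vertical). Circles are Hep-3B and triangles Huh7, open for shLuc and filled for shKLHL23. No filled symbol overlaps the open symbols of its line, as the rule for choosing the 10 genes per direction requires. For the lower genes Hep-3B knockdown replicate 1, whose KLHL23 level was 65.5% of control, lies nearest to 0.

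Genes of the integrated stress response and amino acid supply fell more often than those of any other list examined. The lists and their members were chosen with earlier results of these data known, so this ranking is a description and no test. Of 52 measured genes 36 were called lower and 2 higher (median -0.71), against 5.16% and 5.1% of all genes. ATF3, a stress-induced repressor of the ATF family, stood at 9.05 and 9.07 (shLuc) against 8.09 and 5.84 (shKLHL23) in Hep-3B, and at 9.07 and 9.14 against 6.62 and 7.07 in Huh7. Every knockdown array was below every control array, and Hep-3B replicate 3 was the lowest (shared difference -2.17, SE 0.38, n = 4 per hairpin, limma adjusted p = 0.0111). INHBE, an activin subunit secreted by the liver, was at 10.24 and 10.30 (shLuc) against 9.51 and 7.91 (shKLHL23) in Hep-3B, and at 7.77 and 7.83 against 4.40 and 5.42 in Huh7. Its groups were apart in both lines (-2.22, SE 0.38, limma adjusted p = 0.0108).

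CTH, which makes cysteine, lay at 9.37 and 9.36 (shLuc) against 8.62 and 6.81 (shKLHL23) in Hep-3B, and at 10.14 and 10.11 against 8.34 and 8.27 in Huh7. The Huh7 knockdown arrays were close to each other and the Hep-3B ones were not, and neither overlapped its controls (-1.74, SE 0.30, limma adjusted p = 0.0111). ASNS, asparagine synthetase, was at 10.87 and 10.83 (shLuc) against 10.16 and 8.66 (shKLHL23) in Hep-3B, and at 11.40 and 11.50 against 10.10 and 10.14 in Huh7 (-1.38, SE 0.25, limma adjusted p = 0.0132). Its groups did not overlap either, although a second probe set, at -0.30, was not called. Of 7 enzymes of serine, one-carbon and proline synthesis 5 were called lower and 2 were not called. PHGDH, the first enzyme of serine synthesis, changed by -0.79 (SE 0.14, limma adjusted p = 0.0121) and MTHFD2, of mitochondrial one-carbon metabolism, by -1.16 (SE 0.20, limma adjusted p = 0.0111).

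Among amino acid transporters 5 of 7 were called lower and 0 higher. SLC7A11, which imports cystine, stood at 10.26 and 10.29 (shLuc) against 9.52 and 7.95 (shKLHL23) in Hep-3B, and at 9.69 and 9.73 against 7.16 and 8.63 in Huh7. Its 4 knockdown arrays were spread over more than 2 log2 units, all below their controls (-1.68, SE 0.36, limma adjusted p = 0.0212). SLC7A1, an importer of cationic amino acids, fell by 1.21 (SE 0.17, limma adjusted p = 0.00838). Of 8 tRNA synthetases, which charge tRNAs with amino acids, 6 were called lower and 0 higher, GARS1 by -0.69 (SE 0.10, limma adjusted p = 0.00838) at -0.69 in Hep-3B and -0.70 in Huh7.

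All 7 transcription factors of the list were called lower, with a median of -1.0 and a range of -2.17 to -0.67. ATF4 had the smallest change (-0.67, SE 0.17, limma adjusted p = 0.0397): its levels were 12.04 and 12.05 with shLuc and 11.64 and 11.18 with shKLHL23 in Hep-3B, and 11.80 and 11.86 with shLuc and 10.69 and 11.58 with shKLHL23 in Huh7. The groups did not overlap, but the Huh7 knockdown arrays were far apart. DDIT3, known as CHOP, fell by 1.0 (SE 0.20, limma adjusted p = 0.0182), and the pseudokinase TRIB3 by 1.26 (SE 0.22, limma adjusted p = 0.0113). Of the 4 kinases grouped here as sensors, 0 were called lower and 2 higher, the RNA-activated EIF2AK2 (0.67, SE 0.10, limma adjusted p = 0.00838) and EIF2AK3 of the endoplasmic reticulum (0.27, SE 0.07, limma adjusted p = 0.0484). ERN1, a stress sensor on the same list but outside that group, was called lower (-1.25, SE 0.17, limma adjusted p = 0.00838). For EIF2AK2 only 1 of 3 probe sets was called, and another gave 0.01. CHAC1, which degrades glutathione, was not called (-0.88, SE 0.35, limma adjusted p = 0.141): it was at -1.70 in Huh7 and at -0.07 in Hep-3B, where its arrays overlapped. The genes named in the last 3 paragraphs other than ATF3, INHBE, CTH, ASNS, SLC7A11 and ERN1, and the division of the list by role, were chosen after the values had been seen.

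Leaving out single arrays changed how many members passed. The count of lower members was 24 without Huh7 control replicate 1, 25 without replicate 3 of that group, 29 without Hep-3B knockdown replicate 3 and 37 without Hep-3B knockdown replicate 1, and the list's median lay between -0.81 and -0.62 in all 8 fits. ATF3, INHBE, CTH, ASNS, MTHFD2, SLC7A1, TRIB3, GARS1 and EIF2AK2 stayed called in all 8. SLC7A11 (limma adjusted p up to 0.0698) and DDIT3 (up to 0.0659) were lost without either Huh7 control array or Hep-3B knockdown replicate 3, PHGDH without Huh7 control replicate 1 (0.0501), and ATF4 (up to 0.113) and EIF2AK3 (up to 0.149) in most fits.

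The upstream 250 bases of 2 of the falling genes are shown with matches to the element that ATF4 binds with a C/EBP partner. It was searched as TGATGNAA on both strands and is printed in capitals (RefSeq, GRCh38.p14).
ATF3 (chr1:212565157-212565406, + strand): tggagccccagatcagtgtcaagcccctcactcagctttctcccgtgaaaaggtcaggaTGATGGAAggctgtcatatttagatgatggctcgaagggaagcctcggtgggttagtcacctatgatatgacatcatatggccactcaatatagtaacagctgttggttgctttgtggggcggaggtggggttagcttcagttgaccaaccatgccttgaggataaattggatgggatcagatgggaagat
ASNS (chr7:97872409-97872658, - strand): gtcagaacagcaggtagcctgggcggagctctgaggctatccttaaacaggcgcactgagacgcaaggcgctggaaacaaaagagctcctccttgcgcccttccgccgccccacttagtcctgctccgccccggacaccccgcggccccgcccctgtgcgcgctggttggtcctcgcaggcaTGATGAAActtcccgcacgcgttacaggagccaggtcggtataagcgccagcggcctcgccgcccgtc
Of the 36 genes of the list called lower, 30 had an entry in the promoter table and 3 of these held the element (10.0%), ATF3, ASNS and AARS1, a tRNA synthetase. The share was 2.31% over the measured genes with an entry, 2.51% among genes called lower in both lines and 1.45% among those called higher. The cyclic AMP response element TGACGTCA was found in 2.38% of measured genes, in 4.77% of genes called lower and in 3.03% of genes called higher. The E-box CACGTG was found in 7.83%, 11% and 10.5% of the same sets, and the AP-1 site TGANTCA in 5.03%, 3.46% and 2.79%. A match here too describes the letters and is not evidence of binding. No match in such a window says only that these letters are not in it.

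Of 40 measured immediate early genes, which growth factors and stress switch on within minutes, 18 were called lower, 0 higher and 22 not at all (median -0.36). KLF4, a zinc finger factor, stood at 6.58 and 6.64 (shLuc) against 6.01 and 5.14 (shKLHL23) in Hep-3B, and at 8.94 and 8.92 against 7.11 and 7.12 in Huh7. Its groups were apart in both lines, with the larger distance in Huh7 (-1.42, SE 0.20, limma adjusted p = 0.00838). EREG, a ligand of the EGF receptor, was at 8.49 and 8.41 (shLuc) against 8.01 and 6.70 (shKLHL23) in Hep-3B, and at 5.37 and 5.51 against 3.76 and 3.81 in Huh7 (-1.38, SE 0.24, limma adjusted p = 0.0113). It did not overlap within a line either, but 1 of its 2 probe sets, at -0.14, was not called. DUSP1, a phosphatase of MAP kinases, fell by 1.04 (SE 0.19, limma adjusted p = 0.0121). All 3 stayed called with each array left out, while the list's count ran from 10 without either Huh7 control array to 21 without Hep-3B knockdown replicate 1.

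NF-kB and cytokine genes were called lower in 13 of 42 and higher in 3 (median -0.26). The neutrophil chemokine CXCL3 lay at 4.61 and 4.49 (shLuc) against 3.72 and 2.93 (shKLHL23) in Hep-3B, and at 9.43 and 9.28 against 8.16 and 7.22 in Huh7. The arrays did not overlap in either line (-1.44, SE 0.22, limma adjusted p = 0.00886), but Hep-3B knockdown replicate 3 lay under its array's lower quartile of 3.081, so the size in Hep-3B ends at a level not separated from background. CXCL8 fell by 1.24 (SE 0.25, limma adjusted p = 0.0169) and TNFAIP3, a feedback inhibitor of NF-kB, by 0.86 (SE 0.13, limma adjusted p = 0.00928). CXCL2 was at -0.97 (SE 0.18, limma adjusted p = 0.0152) on a probe set prone to cross-hybridisation, and another of its probe sets gave 0.09. The 3 higher members were the chemokine CX3CL1 (0.78), the defensin DEFB1 (1.22) and the receptor IL6R (0.54). CXCL8 was lost without either Huh7 control array (limma adjusted p up to 0.0585), and the list's lower count ran from 5 to 12 over the fits without single arrays.

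In the lists of 3 developmental pathways more genes were called lower than higher, while most members were not called. The lists share members, so their counts are not independent. MYC is also on the immediate early list, and INHBE and GDF15 are also on the stress response list. ATF3 of the immediate early list and CEBPB of the liver transcription factor list are on the stress response list too. Of 34 Wnt genes 7 were lower and 1, the coreceptor LRP5 (0.44), higher (median -0.17). MYC stood at 11.78 and 11.75 (shLuc) against 11.27 and 10.63 (shKLHL23) in Hep-3B, and at 11.87 and 11.88 against 11 and 11.09 in Huh7. It was lower in each knockdown array than in any control array (-0.83, SE 0.12, limma adjusted p = 0.00838), at -0.82 in Hep-3B and -0.83 in Huh7. The Wnt-amplifying receptor LGR5 (-0.59, SE 0.09, limma adjusted p = 0.0094), the receptor FZD5 (-0.54) and the target SP5 (-0.52) fell too. The list's median was -0.00 in Hep-3B and -0.32 in Huh7. FZD5 was lost without Huh7 control replicate 1 (limma adjusted p = 0.0535), as was SP5, which went also without Huh7 control replicate 3 and Hep-3B knockdown replicate 3 (up to 0.0703).

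The Notch list had 8 of 36 called lower and 0 higher, with a median of 0.02 near that of all genes. The target HES1 (-0.71, SE 0.14, limma adjusted p = 0.0169), the ligand JAG1 (-0.45), the DNA-binding factor RBPJ (-0.37) and SOX9, a biliary and progenitor factor (-0.60, SE 0.09, limma adjusted p = 0.00838), fell. SOX9 stayed called in all 8 fits without single arrays; HES1 was lost without Huh7 control replicate 1 (0.0569), JAG1 in 3 fits (up to 0.0677) and RBPJ in 6 (up to 0.118). Of 38 TGF-beta, activin and BMP genes 9 were lower and 0 higher (median -0.12), with the coreceptor TGFBR3 at -0.76 (SE 0.13, limma adjusted p = 0.0101), INHBE at -2.22, the iron hormone HAMP, chosen after its value was seen, at -0.83, the repressor SKIL at -0.69 and the stress-induced ligand GDF15 at -0.73. TGFBR3 held in all 8 fits, and SKIL (up to 0.0689) and GDF15 (up to 0.0753) did not.

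Genes that answer to glucose and to FOXO factors were called lower in 9 of 27 and higher in 0, with a median of -0.02. TXNIP, an arrestin that limits glucose uptake, stood at 9.02 (both shLuc arrays) against 8.25 and 6.84 (shKLHL23) in Hep-3B, and at 10.43 and 10.46 against 8.72 and 9.38 in Huh7. There was no overlap in either line (-1.44, SE 0.26, limma adjusted p = 0.0127). Its relative ARRDC4 lay at 6.46 and 6.38 (shLuc) against 5.58 and 4.82 (shKLHL23) in Hep-3B, and at 9.36 and 9.30 against 7.24 and 7.89 in Huh7 (-1.49, SE 0.19, limma adjusted p = 0.00786), again without overlap. The factors FOXO1 (-0.65, SE 0.11, limma adjusted p = 0.0109) and FOXO3 (-0.78, SE 0.11, limma adjusted p = 0.00838) fell. All 4 stayed called with each array left out.

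Targets of hypoxia-inducible factor and glycolysis divided the lines. Of 47 measured 9 were called lower and 1 higher, and the list's median was -0.49 in Hep-3B and 0.02 in Huh7. In 17 of the 47 the arrays were separated in opposite directions in the lines, against 8.3% of all genes. DDIT4, a stress-induced inhibitor of mTOR, was at 12.13 and 12.12 (shLuc) against 11.37 and 9.46 (shKLHL23) in Hep-3B, and at 10.97 and 11.08 against 7.03 and 9.38 in Huh7. The knockdown arrays of each line were far apart and all below their controls (-2.26, SE 0.52, limma adjusted p = 0.0272). VEGFA, the endothelial growth factor, lay at 10.97 and 11.06 (shLuc) against 10.44 and 8.77 (shKLHL23) in Hep-3B, and at 10.91 and 10.89 against 9.39 and 9.70 in Huh7. It was likewise without overlap (-1.38, SE 0.28, limma adjusted p = 0.0186). The hormone STC2 (-1.32) and the hexokinase HK2 (-1.15) fell too, and the repressor BHLHE41 was the higher member (0.90, SE 0.17, limma adjusted p = 0.0153).

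HIF1A itself was not called (-0.15, SE 0.07, limma adjusted p = 0.214; -0.05 in Hep-3B and -0.25 in Huh7). VEGFA and STC2 also belong to the stress response list, and DDIT4 is a known target of both pathways. Without either Huh7 control array 0 of the 47 were called lower, and DDIT4 (limma adjusted p up to 0.0873), VEGFA (0.0629), STC2 (0.0759), HK2 (0.0681) and BHLHE41 (0.0559) were lost.

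Liver transcription factors were called lower in 15 of 50 and higher in 2 (median -0.22). MAF was the exception in size: it stood at 4.91 and 5.03 (shLuc) against 6.76 and 7.34 (shKLHL23) in Hep-3B, and at 5.47 and 5.51 against 7.64 and 6.91 in Huh7. All knockdown arrays were above all controls (1.93, SE 0.17, limma adjusted p = 0.0016), and 3 of its 6 probe sets were called higher. CEBPB, a bZIP factor of the acute phase and of stress, lay at 12.07 and 11.98 (shLuc) against 11.44 and 10.62 (shKLHL23) in Hep-3B, and at 11.86 and 11.93 against 10.59 and 11.03 in Huh7. It was lower without overlap (-1.04, SE 0.16, limma adjusted p = 0.00928), and MAFF, a small partner of MAF proteins, fell by 1.09 (SE 0.18, limma adjusted p = 0.0108). The other higher member was ZBTB20 (0.36), a repressor of AFP. MAF, CEBPB and MAFF held in all 8 fits without single arrays.

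Of 57 cytochrome P450, conjugation and drug transport genes 15 were called higher, 14 of them moving the same way in every array, and 0 lower (median 0.12, and 0.12 to 0.13 in each of the 4 knockdown arrays). CYP3A4, the main drug-oxidising enzyme of the liver, stood at 6.22 and 6.18 (shLuc) against 7.01 and 7.04 (shKLHL23) in Hep-3B, and at 5.25 and 4.99 against 6.26 and 5.98 in Huh7. The groups were apart by similar distances (0.91, SE 0.09, limma adjusted p = 0.00294), but its probe set is prone to cross-hybridisation, 1 of its 5 was called, and without such probe sets it was at 0.09. CYP3A5 was called on all 4 of its probe sets (1.22, SE 0.17, limma adjusted p = 0.00838). The sulfotransferase SULT1C2 (1.35, SE 0.16, limma adjusted p = 0.00717) and the esterase CES2 (0.79, SE 0.12, limma adjusted p = 0.00898) rose. All 4 held with each array left out, while the list's higher count ran from 7 to 10 over those fits, below the 15 of the full fit.

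Plasma carriers and acute phase proteins had 8 of 49 called higher and 0 lower (median 0.12). TTR, the carrier of thyroxine and retinol-binding protein, lay at 9.01 and 8.96 (shLuc) against 10.30 and 10.83 (shKLHL23) in Hep-3B, and at 7.78 and 8.02 against 8.97 and 9.29 in Huh7. It rose without overlap, by 1.40 (SE 0.14, limma adjusted p = 0.00294). The cortisol carrier SERPINA6 rose by 0.89 (SE 0.11, limma adjusted p = 0.00717), AMBP by 0.43 and afamin (AFM) by 0.84, from Hep-3B control levels (3.03 and 2.97) under the lower quartile. Of 52 complement and coagulation genes 9 were higher and 2 lower (median 0.10), with coagulation factor F10 at 0.73 (SE 0.11, limma adjusted p = 0.00852), C4BPA at 0.72 and CFB at 0.56. CD55, which protects cells from complement, fell by 0.74 on 3 of 3 probe sets (SE 0.11, limma adjusted p = 0.00838), the other lower member being PROC (-0.33). TTR, SERPINA6, AMBP, F10 and CD55 held in all 8 fits without single arrays, and C4BPA (limma adjusted p up to 0.0636), CFB (0.0975) and AFM (0.0847) were lost without either Huh7 control array. Over these fits the higher count ran from 3 to 7 for plasma carriers and from 1 to 11 for complement and coagulation. The summed log2 level of the 8 hepatocyte markers was 99.2 to 99.5 in Hep-3B knockdown against 97.4 to 97.6 in control arrays, and 95.2 to 98.4 against 95.1 to 95.5 in Huh7; its part in these counts was not tested.

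Bile acid genes had 3 of 26 higher and 0 lower (median 0.11), so that 11.5% were called, against 10.3% of all genes. The higher members were the FGF19 coreceptor KLB (0.49, SE 0.08, limma adjusted p = 0.0094), the bile canalicular pump ABCC2 (0.42) and AKR1C4 (0.55). KLB held in all 8 fits without single arrays, and ABCC2 (up to 0.0598) and AKR1C4 (up to 0.0958) were lost without either Huh7 control array. Urea cycle and amino acid breakdown genes had 7 of 58 higher and 7 lower (median 0.01). Besides CTH, the lower members included CBS, which makes the substrate of CTH from homocysteine (-0.87, SE 0.12, limma adjusted p = 0.00838). The arginase ARG2 (-0.55, SE 0.09, limma adjusted p = 0.0109) and NAGS, which activates the urea cycle (-0.80, SE 0.15, limma adjusted p = 0.0151), were lower too. NAGS was lost without either Huh7 control array (up to 0.0531), and the other 3 held.

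Sterol synthesis and uptake genes were called higher in 7 of 22 and lower in 0, with a median of 0.42 that was 0.82 in Hep-3B and 0.18 in Huh7. MSMO1, a demethylase of the sterol ring, stood at 9.15 and 9.19 (shLuc) against 10.58 and 11.18 (shKLHL23) in Hep-3B, and at 9.12 and 9.02 against 9.36 and 9.71 in Huh7. The arrays did not overlap in either line, and the Hep-3B distance was the larger (1.71 against 0.47; test of the difference between lines, limma adjusted p = 0.0719). Its shared difference was 1.09 (SE 0.24, limma adjusted p = 0.023), and IDI1 (1.06), MVD (0.69) and NSDHL (0.62) of the same pathway rose too. These calls were fragile: 0 of the 22 were called without either Hep-3B control array, with MSMO1 at an adjusted p of up to 0.0606 in limma, IDI1 up to 0.0637, MVD up to 0.0897 and NSDHL up to 0.0688.

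Fatty acid synthesis and lipid droplet genes had 5 of 30 higher and 3 lower (median 0.15). ANGPTL8, a secreted regulator of lipoprotein lipase, lay at 10.01 and 9.95 (shLuc) against 9.33 and 8.50 (shKLHL23) in Hep-3B, and at 10.90 and 10.88 against 8.31 and 9.53 in Huh7. It was lower without overlap (-1.52, SE 0.28, limma adjusted p = 0.0147), as was the droplet coat protein PLIN2 (-0.72, SE 0.12, limma adjusted p = 0.0103), while the droplet proteins CIDEB (1.06, SE 0.16, limma adjusted p = 0.00866) and CIDEC (0.61) rose. A second probe set of PLIN2 gave 0.05. DGAT2 (0.36), the fatty acid synthase FASN (0.53) and PLIN3 (0.71) were the other higher members and HILPDA (-0.42) the other lower one. Fatty acid oxidation had 4 of 29 higher and 0 lower (median 0.14), so that 13.8% were called, against 10.3% of all genes. The higher members were the pantetheinase VNN1 (1.39, SE 0.20, limma adjusted p = 0.00838), BDH1 of ketone body synthesis (0.78, SE 0.13, limma adjusted p = 0.0105), the fatty acid carrier FABP1 (0.72) and CPT1A. CPT1A, which admits fatty acids to mitochondria, was at 8.95 and 8.83 with shLuc and 9.17 and 9.41 with shKLHL23 in Hep-3B, and at 5.40 in both shLuc arrays of Huh7 and 8.25 and 8.32 in its shKLHL23 arrays. Both lines moved up without overlap, by 0.39 and 2.88, and the difference between them was itself called (limma adjusted p = 0.00155). PLIN2, CIDEB, VNN1 and BDH1 held in all 8 fits without single arrays; ANGPTL8 (limma adjusted p up to 0.0582), CIDEC (0.0781), FABP1 (0.0674) and CPT1A (0.109) were lost without either Huh7 control array.

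**Figure D3:**
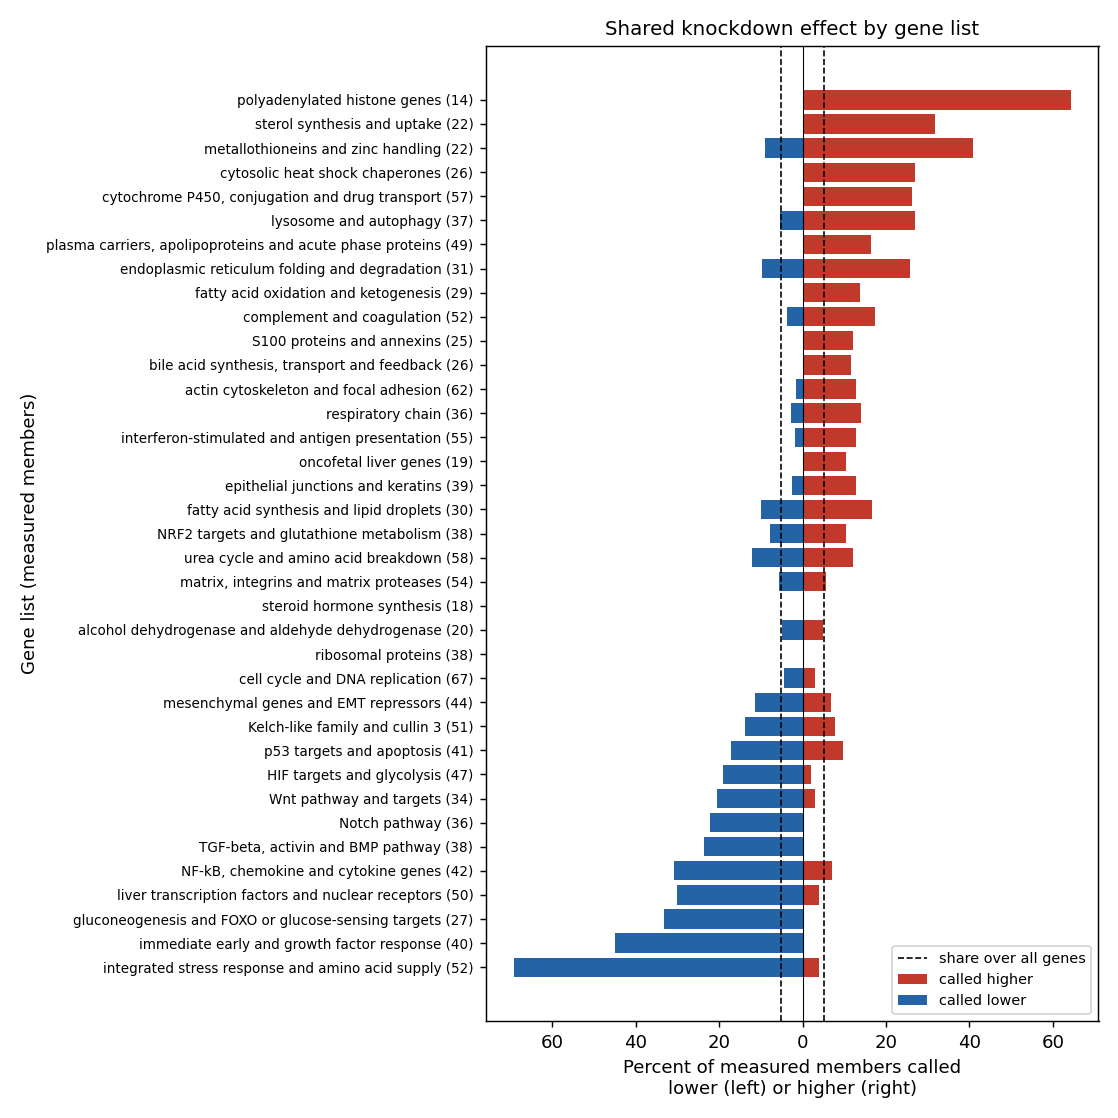
Percent of measured members called lower (left, blue) or higher (right, red) in the shared fit for each gene list (vertical, measured members in parentheses), with dashed lines at the shares over all genes (5.16% lower, 5.1% higher). Stress response genes reach furthest to the left (36 of 52 lower) and histone genes furthest to the right (9 of 14 higher). The lists were chosen with earlier results of these data known.

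The list labelled polyadenylated histone genes had 9 of 14 called higher and 0 lower (median 0.68). The oligo-dT step of such arrays captures transcripts with a poly(A) tail, and whether the transcripts of these members carry one was not tested. H2BC9 stood at 4.29 and 4.35 (shLuc) against 5.15 and 5.57 (shKLHL23) in Hep-3B, and at 5.41 and 5.60 against 6.27 and 5.89 in Huh7. It rose without overlap (0.81, SE 0.14, limma adjusted p = 0.0108) and held in all 8 fits without single arrays. H2BC21 (1.01, SE 0.22, limma adjusted p = 0.0233), H2BC5 (0.75) and H4C8 (0.85) rose too, but H2BC21 (up to 0.0784), H2BC5 (up to 0.108) and H4C8 (0.0569) were lost without Huh7 control replicate 1, when 2 of the 14 passed. Histone genes are near-identical copies, and only 7 remained without probe sets prone to cross-hybridisation, of which 3 were called higher. Cell cycle and DNA replication genes, in turn had 2 of 67 higher and 3 lower (median -0.08), shares near those of all genes, with the mitotic kinesin KIF20A at 0.47, PCNA at 0.31, the kinetochore protein NDC80 at -0.58, the cyclin CCNB2 at -0.35 and RBL2 at -0.28. Each of KIF20A (limma adjusted p = 0.0535), PCNA (up to 0.0928), NDC80 (up to 0.123) and CCNB2 (up to 0.112) was lost without Huh7 control replicate 1.

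Cytosolic heat shock chaperones had 7 of 26 higher and 0 lower (median 0.17). HSPE1, the mitochondrial co-chaperonin on that list, lay at 10.97 and 11.02 (shLuc) against 11.58 and 11.80 (shKLHL23) in Hep-3B, and at 11 and 10.96 against 11.68 and 11.75 in Huh7. The lines matched in level and distance (0.72, SE 0.07, limma adjusted p = 0.00294). The co-chaperone DNAJA1 rose by 0.66 (SE 0.08, limma adjusted p = 0.00786), DNAJB1 by 0.51 and HSPB8 by 0.69. HSPE1 and DNAJA1 held in all 8 fits without single arrays, and DNAJB1 (up to 0.0763) and HSPB8 (up to 0.0873) were lost without either Huh7 control array.

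Endoplasmic reticulum folding genes had 8 of 31 higher and 3 lower (median 0.15). The lower members were the sensor ERN1 (-1.25, SE 0.17, limma adjusted p = 0.00838), its target XBP1 (-0.33) and HERPUD1 of protein degradation (-0.47), and SEC24D of the vesicle coat (0.91, SE 0.13, limma adjusted p = 0.00838), MANF (0.50) and SDF2L1 (0.42) were among the higher ones. ERN1 stood at 7.91 and 7.84 (shLuc) against 7.32 and 6.72 (shKLHL23) in Hep-3B, and at 8.63 and 8.81 against 7.08 and 7.07 in Huh7, without overlap. ERN1 and SEC24D held in all 8 fits; MANF (0.058), SDF2L1 (up to 0.0972), XBP1 (up to 0.0904) and HERPUD1 (up to 0.0916) were lost without Huh7 control replicate 1. A second probe set of HERPUD1 gave 0.21, and a second one of XBP1 gave 0.12.

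Lysosome and autophagy genes had 10 of 37 higher and 2 lower (median 0.16). The sialidase NEU1 (0.62, SE 0.10, limma adjusted p = 0.00868), the autophagy protein WIPI1 (0.51, SE 0.08, limma adjusted p = 0.00928) and the protease CTSD (0.69) rose, and ATG12 (-0.47, SE 0.08, limma adjusted p = 0.0113) and MAP1LC3B (-0.38), both parts of the conjugation machinery, fell. Respiratory chain genes had 5 of 36 higher and 1 lower (median 0.03), among them ATP5MC1 of ATP synthase (0.65, SE 0.10, limma adjusted p = 0.00844) and NDUFB3 of complex I (0.63, SE 0.08, limma adjusted p = 0.00786), with COX7B (0.41), SDHC (0.32) and ATP5MC3 (0.24). The lower member was TFAM, which packages mitochondrial DNA (-0.52). CTSD (limma adjusted p up to 0.0584) and TFAM (up to 0.0812) were lost without either Huh7 control array, and the other genes named with SEs here held.

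Genes of the p53 and apoptosis list were called lower in 7 of 41 and higher in 4 (median -0.04); Hep-3B lacks the p53 protein and Huh7 makes a mutant form. PMAIP1, a trigger of mitochondrial apoptosis, lay at 8.87 and 8.91 (shLuc) against 8.13 and 7.29 (shKLHL23) in Hep-3B, and at 6.57 and 6.70 against 4.24 and 5.22 in Huh7. It fell without overlap (-1.55, SE 0.25, limma adjusted p = 0.0094), with the stress sensor SESN2 (-1.08) and the growth arrest gene GADD45B (-0.79, SE 0.12, limma adjusted p = 0.00928). The cell cycle inhibitor CDKN1A was at 10.14 and 10.15 (shLuc) against 10.65 and 11.06 (shKLHL23) in Hep-3B, and at 6.07 and 5.87 against 7.10 and 6.92 in Huh7. It rose in both lines without overlap (0.87, SE 0.11, limma adjusted p = 0.00786), as did the death ligand TNFSF10 (1.65, SE 0.30, limma adjusted p = 0.014), with SFN (0.29) and BCL2L11 (0.32) as the other higher members. PMAIP1, CDKN1A and GADD45B held in all 8 fits without single arrays, and SESN2 (limma adjusted p up to 0.0566) and TNFSF10 (0.0559) were lost without Huh7 control replicate 1.

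Interferon-stimulated genes had 7 of 55 higher and 1 lower (median 0.09). The lower member was IFIT5 (-0.34), and the rises of IFIT1 (0.51), OAS1 (0.58) and IRF9 (0.39) were lost without Huh7 control replicate 1 (limma adjusted p up to 0.072, 0.0683 and 0.107). CMPK2 (0.91, SE 0.25, limma adjusted p = 0.0471) was called in none of the fits without single arrays, and its Huh7 control levels (2.76 and 3.03) lay under the lower quartile. NRF2 targets had 4 of 38 higher and 3 lower (median 0.10), with the reductase AKR1B10 (0.92) and the heme-degrading HMOX1 (0.58) higher and NFE2L2, the gene of NRF2 itself, lower (-0.38, SE 0.08, limma adjusted p = 0.0183). PRDX1 (0.33) and UGDH (0.60) were the other higher members, and SLC7A11 and TXNRD1 (-0.46) the other lower ones. AKR1B10, HMOX1 and NFE2L2 were lost without Huh7 control replicate 1 (limma adjusted p up to 0.0681).

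In the genes of the transition named in the series title, both cadherins rose. CDH1, E-cadherin of epithelial junctions, stood at 8.99 and 8.92 (shLuc) against 9.22 and 9.46 (shKLHL23) in Hep-3B, and at 8.69 and 8.73 against 9.87 and 9.57 in Huh7. The groups did not overlap in either line (0.70, SE 0.13, n = 4 per hairpin, limma adjusted p = 0.0152). CDH2, N-cadherin of mesenchymal cells, lay at 6.74 and 6.70 (shLuc) against 6.90 and 7.32 (shKLHL23) in Hep-3B, and at 5.80 and 6.0 against 6.64 and 6.56 in Huh7. It also rose without overlap (0.55, SE 0.11, limma adjusted p = 0.0181). The repressor ZEB1 was at 7.64 and 7.47 (shLuc) against 7.31 and 7.18 (shKLHL23) in Hep-3B, and at 7.13 and 7.40 against 5.95 and 6.67 in Huh7. It fell, close to the threshold (-0.64, SE 0.18, limma adjusted p = 0.0487).

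VIM, the filament protein vimentin, was not called in the shared fit (0.86, SE 0.26, limma adjusted p = 0.0608), and its lines differed (0.15 in Hep-3B, 1.58 in Huh7; limma adjusted p of the difference = 0.0356). FN1, fibronectin, had 0.02 (SE 0.07, limma adjusted p = 0.87) and SNAI2, whose values lay between 2.24 and 2.85, had -0.09 (SE 0.09, limma adjusted p = 0.601). CDH1 was lost without either Huh7 control array (limma adjusted p up to 0.0588), CDH2 in 4 fits (up to 0.0656), and ZEB1 stayed called in 1 of 8 (up to 0.142).

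The epithelial junction list had 5 of 39 higher and 1 lower (median 0.03): the gap junction protein GJB1 (0.67, SE 0.10, limma adjusted p = 0.00868), CLDN4 (0.60) and EPCAM (0.27) rose with CDH1 and with CLDN2 (0.54), whose arrays were not all separated, and CLDN1 fell (-0.53, SE 0.10, limma adjusted p = 0.0151). The mesenchymal list had 3 of 44 higher and 5 lower (median -0.02): fibrillin FBN1 (0.60, SE 0.10, limma adjusted p = 0.0109) and NT5E (0.35) rose with CDH2, and the collagen crosslinker LOX (-1.03) and the factors FOXQ1 (-0.83, SE 0.11, limma adjusted p = 0.00838) and SOX4 (-0.34) fell with SOX9 and ZEB1. Of 54 matrix genes 3 were higher and 3 lower (median 0.05), so that 11.1% were called, near the 10.3% of all genes. MMP7, a protease of epithelial cells, lay at 4.42 and 4.45 (shLuc) against 5.34 and 5.86 (shKLHL23) in Hep-3B, and at 5.65 and 5.54 against 9.01 and 9.21 in Huh7. It rose in both lines (2.34, SE 0.39, limma adjusted p = 0.0108), by 1.17 and 3.52, with the protease inhibitor TIMP2 (0.89, SE 0.14, limma adjusted p = 0.0095), and the collagen receptor subunit ITGA2 (-0.88, SE 0.13, limma adjusted p = 0.00866), the protease ADAM17 (-0.58) and fibulin FBLN1 (-0.51) fell. GJB1, FBN1, FOXQ1, MMP7, TIMP2 and ITGA2 held in all 8 fits without single arrays. CLDN4 (limma adjusted p up to 0.0794), EPCAM (0.127), CLDN1 (0.0567) and LOX (0.0678) were lost without either Huh7 control array.

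Actin and focal adhesion genes had 8 of 62 higher and 1 lower (median 0.12, with 0.01 in Hep-3B and 0.24 in Huh7). The protease CAPN2 (0.46), talin TLN1 (0.43) and the small GTPase RHOC (0.59) rose, and RHOB was the lower member (-0.55, SE 0.11, limma adjusted p = 0.0157). All 4 were lost without either Huh7 control array (limma adjusted p up to 0.0585, 0.0896, 0.103 and 0.0596), and 0 of the 62 were called without Huh7 control replicate 1. S100 proteins and annexins had 3 of 25 higher and 0 lower (median 0.18): S100A14 (0.61), S100A13 (0.44) and ANXA4 (0.60), none of which passed without Huh7 control replicate 3 (limma adjusted p up to 0.0621, 0.0941 and 0.143 over the fits without single arrays).

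The Kelch-like and cullin 3 list had 4 of 51 higher and 7 lower, KLHL23 among them (median 0.04). KLHDC7B, a kelch domain protein, was at 5.10 and 4.83 (shLuc) against 4.17 and 3.69 (shKLHL23) in Hep-3B, and at 4.97 and 5.45 against 3.17 and 3.13 in Huh7. It fell without overlap by nearly as much as KLHL23 (-1.55, SE 0.21, limma adjusted p = 0.00838), although a second probe set gave -0.40. KBTBD4 (0.33) and KLHL21 (0.45) rose. KBTBD2 (-0.50, SE 0.09, limma adjusted p = 0.0117) and KLHL28 (-0.72, SE 0.15, limma adjusted p = 0.0188) fell. Both partners of the ligase rose: CUL3 by 0.37 (SE 0.07, limma adjusted p = 0.0172) and RBX1, its RING subunit, by 0.58 (SE 0.09, limma adjusted p = 0.00838). Only 1 of the 3 probe sets of CUL3 was called, and another gave -0.13. KLHDC7B, KBTBD2 and RBX1 held in all 8 fits without single arrays, and KLHL28 (limma adjusted p up to 0.06) and CUL3 (0.0678) were lost without either Huh7 control array.

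Several further genes led the shared falls without belonging to a list. TSC22D3, a glucocorticoid-induced leucine zipper protein, lay at 7.28 and 7.39 (shLuc) against 6.73 and 5.11 (shKLHL23) in Hep-3B, and at 7.66 and 7.65 against 5.86 and 5.83 in Huh7 (-1.61, SE 0.28, limma adjusted p = 0.0109). Its groups did not overlap, but 1 of its 3 probe sets was called, and the setting without cross-hybridising probe sets gave -0.05. TUBE1, epsilon tubulin of centrioles, was at 8.71 and 8.88 (shLuc) against 8.18 and 6.92 (shKLHL23) in Hep-3B, and at 8.66 and 8.63 against 6.80 and 7.13 in Huh7 (-1.46, SE 0.23, limma adjusted p = 0.00928). It was lower without overlap, and its other probe set was at -0.03. GOLM1 rose from 4.07 and 4.28 to 5.34 and 5.99 in Hep-3B and from 4.65 and 4.64 to 6.21 and 5.64 in Huh7 (1.39, SE 0.16, limma adjusted p = 0.00642), also on 1 of 2 probe sets. All 3 held in all 8 fits without single arrays.

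Limma called 0 of 38 ribosomal protein genes (median -0.03; 4 at an unadjusted p under 0.05) and 0 of 18 genes of steroid hormone synthesis (median 0.04; 4 at an unadjusted p under 0.05). The furthest ribosomal members were RPS9 (-0.18, limma adjusted p = 0.0882) and RPL38 (0.17, limma adjusted p = 0.156). In the steroid list CYP17A1 had a shared difference of 1.21 (limma adjusted p = 0.166) and STAR of 0.95 (limma adjusted p = 0.0687), each large in Hep-3B alone. STAR was at 3.18 to 3.54 in Huh7, close to the lower quartile of those arrays. Alcohol and aldehyde dehydrogenases had 1 of 20 higher, ALDH1B1 (0.57), and 1 lower, DHRS3 (-0.36), both lost without either Huh7 control array. Oncofetal genes had 2 of 19 higher, SPINK1 (0.61, SE 0.11, limma adjusted p = 0.0109) and EPCAM. The called shares of these 2 lists, 10.0% and 10.5%, were near the 10.3% of all genes.

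**Figure D4:**
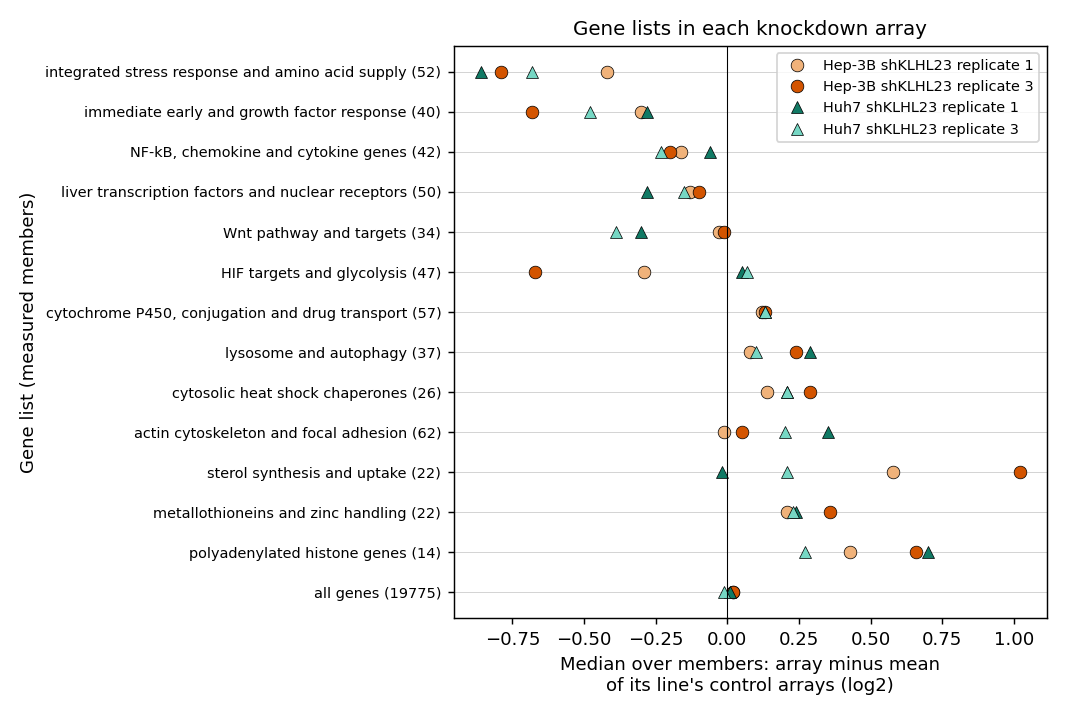
Median departure from the line's control mean over the members of 13 gene lists and over all genes (horizontal, log2), with 1 symbol for each knockdown array (circles Hep-3B, triangles Huh7). Stress response genes lie left of 0 in all 4 arrays (-0.86 to -0.42), while hypoxia targets lie at -0.67 and -0.29 in Hep-3B and at 0.05 and 0.07 in Huh7.

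The shared fit leaves out genes that the lines moved in different directions. In 1642 genes (8.3%) the knockdown arrays of both lines were beyond their controls on opposite sides, and the difference between the lines was called for 249 genes (1.26%), 165 of them with line differences of opposite sign (0.834%). TAGLN, an actin-binding protein, lay at 9.27 and 9.18 (shLuc) against 8.48 and 7.66 (shKLHL23) in Hep-3B, and at 7.34 and 7.66 against 9.47 and 9.16 in Huh7. The lines moved apart, so its shared difference of 0.33 (SE 0.50, limma adjusted p = 0.751) describes neither. Of the 2030 genes called in the shared fit, 41 were also called in the difference between lines, and 24 did not move the same way in every array.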

How the data were processed

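Expression values of 8 arrays were deposited as log2 levels from robust multi-array averaging, which the authors made, per the submitters' processing notes, in Affymetrix Expression Console 1.2. The values were used as deposited, without further normalization. Of 54675 probe sets, 41097 carried 1 gene symbol, 1801 several, and 11777 are unnamed here; each of 19775 genes was represented by its singly annotated probe set with the highest mean. Limma 3.58.1 (R 4.3.3) fitted the line and the hairpin, with Benjamini-Hochberg adjustment across the 19775 genes and a threshold of 0.05. Per-line values came from a fit with a mean for each group. Named genes were the 10 per direction with the largest smaller-of-the-lines difference among called genes, up to 4 per list, KLHL23 and 7 transition genes, the 3 furthest apart per direction between the lines, the genes at the threshold, and list members given in a count of 5 or fewer. Others are said to have been chosen after their values were seen. Members and lists were chosen with earlier results of these data known. The script was tested on simulated data. The number of arrays limits the precision. Alternatives left out each array, blocked on replicate number, and changed the probe set choice, filter and centring.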

Additional observations from a re-analysis of the deposited data

Results flagged for a closer look

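The lines differed in the size or direction of the knockdown difference for 11 genes described here, by a test of the difference itself (Huh7 minus Hep-3B, log2, limma). It was negative for ADH4 (-3.31, SE 0.32, adjusted p = 0.00837), CYP17A1 (-2.90, SE 0.40, adjusted p = 0.0187), LIPG (-2.29, SE 0.40, adjusted p = 0.0408) and STAR (-1.67, SE 0.23, adjusted p = 0.0187). It was positive for TAGLN (2.96, SE 0.34, adjusted p = 0.0098), NDRG1 (2.84, SE 0.34, adjusted p = 0.0116), CPT1A (2.49, SE 0.15, adjusted p = 0.00155), MMP7 (2.35, SE 0.23, adjusted p = 0.00837) and KLRK1-AS1 (2.30, SE 0.42, adjusted p = 0.0449). VIM (1.43, SE 0.23, adjusted p = 0.0356) and ANXA4 (0.92, SE 0.13, adjusted p = 0.0202) were positive too. ADH4, CYP17A1, LIPG, TAGLN, NDRG1 and KLRK1-AS1 were named for this difference, so their values are a description. LIPG lay near or under the arrays' lower quartiles in Hep-3B control (3.02 and 3.21) and Huh7 knockdown (2.99 and 2.79). STAR lay close to them in all Huh7 arrays (3.18 to 3.54). The sizes for LIPG and STAR therefore rest in part on levels not separated from background.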

How the results depend on the processing

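Leaving out 1 array gave 480 to 2422 called genes, 204 to 1268 higher and 271 to 1154 lower, 5640 to 6322 that moved the same way, and 480 to 2420 that did both. The fewest, 480, came without Huh7 control replicate 1, 523 without replicate 3 of that group and 737 without Hep-3B knockdown replicate 3. All 2006 genes kept their sign in these fits, which the rule that chose them fixes in advance. The count that moved the same way could only rise, because that rule is looser over fewer arrays. KLHL23 ranged from -1.90 to -1.47. The replicate numbers did not pair the arrays (correlations of same-numbered deviations -0.091 to 0.089), and a replicate block gave 1026 called genes, 447 higher and 579 lower, 1018 of them also moving the same way. Group means gave 3089 called and 1586 lower, and all probe sets 3240. Hep-3B alone had 0 genes called by limma (3731 at an unadjusted p under 0.05) and Huh7 alone 1578. Centring each array on its median made 44% of calls higher, against 49.7%. The cause of the other changes was not tested.

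The choice of probe sets changed the calls. With probe sets averaged per gene, 1766 genes were called. Of the 2006 genes, 1397 then stayed called (69.6%) and 1995 kept their sign. Without probe sets prone to cross-hybridisation, 1428 of 17100 genes were called. Of the 2006 genes, 1676 could then be tested, 1290 stayed called (77%) and 1601 kept their sign. Among the genes named here, signs turned as follows. With probe sets averaged per gene, FN1 was at -0.14. Without probe sets prone to cross-hybridisation, where another probe set stands for the gene, C6orf62 was at -0.30, CXCL2 at 0.09, FBN1 at -0.02, FN1 at -0.30, HERPUD1 at 0.21, HES1 at 0.04, LYZ at -0.14 and TAGLN at -0.12. ADH4 was at -0.03 and -0.09 without Hep-3B control replicates 1 and 3 and at -0.17 without Hep-3B knockdown replicate 3. KLRK1-AS1 was at -0.01 without Huh7 control replicate 1 and -0.05 without Huh7 knockdown replicate 1, TAGLN at -0.03 without either, and NDRG1 at -0.02 without the latter. Over all fits without 1 array the highest values were 0.72 for ADH4, 0.71 for KLRK1-AS1, 0.79 for NDRG1 and 0.79 for TAGLN.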
